A study of Homo sapiens with 9 samples.

Results

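The genes of 8 T-lineage transcription factors were examined in the human leukemia line DND-41, established from T-cell acute lymphoblastic leukemia: GATA3, TCF7, LEF1, MYB, ETS1, IKZF1, TOX and TCF12. Each was taken as its gene span in hg19, to the nearest kb, with 25 kb added on each side, and every deposited peak that overlapped such a window by at least 1 bp was counted. The 8 windows measured 70.0 to 420.0 kb, 1554.0 kb in all, and held 508 of the 183634 peaks of the 5 lists. By the labels all libraries are CUT&RUN, in which an antibody directs a nuclease to its target and the released DNA is sequenced. The control for RUNX1 is titled an input while its antibody label is IgG, and whether RUNX1 was prepared like the other targets was not tested. The histone mark H3K27ac, found at active enhancers and promoters, was mapped in cells given 100 nM ACBI-1 and in cells given the vehicle DMSO. ACBI-1 triggers the degradation of SWI/SNF ATPases and of PBRM1, another subunit of these chromatin remodelers. BRG1 (the SMARCA4 ATPase of SWI/SNF), RUNX1 (a sequence-specific factor of blood cells) and H3K4me3 (a promoter mark) were mapped in DND-41 cells that carry no treatment label. All groups are the same cell line, and each group is 1 library. Differences therefore lack a replicate check, and no p-values were computed. The labels used here state no duration of treatment. The lists give positions and no signal, so read depth is unknown and its part in the differences was not tested. A region outside a list was not called, which is not evidence of a missing mark.

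T-cell progenitors acquire their identity through a small network of such factors. In mice, TCF7 acts early, as a target of Notch signaling, and LEF1, its close relative, shares its DNA-binding HMG box and partners beta-catenin. GATA3 is a zinc finger factor needed from the first T-cell stages, IKZF1 (Ikaros) is a zinc finger factor with tumor suppressor function in lymphoid leukemia, and TCF12 (HEB) is a basic helix-loop-helix E protein. MYB and ETS1 bind many T-cell enhancers together with RUNX1, and TOX is an HMG-box protein needed for CD4 T-cell development in mice.

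H3K27ac covered 302.1 kb of the windows in ACBI and 510.2 kb in DMSO, a ratio of 0.592, beside 0.556 over the whole lists. In such bulk profiles, fewer cells with the mark and less of it per cell cannot be told apart. The genes differed widely around that value. LEF1 had nearly the same covered length in both conditions, at 94.9 kb in ACBI and 96.3 kb in DMSO (ratio 0.986, and 1.02 when both lists were limited to equal numbers of their widest peaks). TCF12 was at the other end, with 13.2 kb in ACBI and 57.7 kb in DMSO (ratio 0.228). TOX had 47.4 kb in ACBI and 116.5 kb in DMSO (ratio 0.406). The remaining 5 genes lay between: ETS1 had 35.3 kb in ACBI and 66.3 kb in DMSO, GATA3 had 15.4 kb in ACBI and 26.5 kb in DMSO, and TCF7 had 21.6 kb in ACBI and 35.9 kb in DMSO. MYB had 22.5 kb in ACBI and 36.5 kb in DMSO, and IKZF1 had 51.9 kb in ACBI and 74.5 kb in DMSO. Their ratios ran from 0.532 for ETS1 to 0.696 for IKZF1, and the median over the 8 genes was 0.591. The 2 longest windows, TCF12 and TOX, had the lowest ratios.

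**Figure D1:**
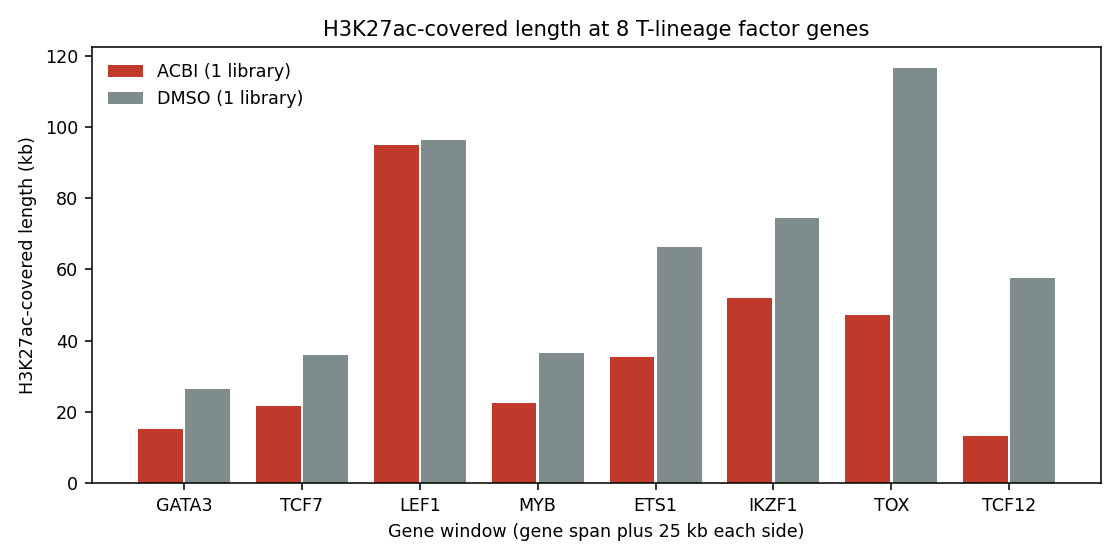
Length covered by H3K27ac peaks (kb, vertical axis) in each gene window, with ACBI in red and DMSO in grey, 1 library each. LEF1 is nearly level at 94.9 kb in ACBI and 96.3 kb in DMSO, while TCF12 has 13.2 kb in ACBI and 57.7 kb in DMSO.

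These ratios were set beside the genome cut into tiles of 200 kb, keeping the 2030 tiles in which DMSO H3K27ac covered at least 20 kb. The median tile had a ratio of 0.532, with quartiles of 0.403 and 0.680. Cover in ACBI was at most 0.5 of that in DMSO for 2 of the 8 genes, TOX and TCF12, against a background of 43.0% of tiles. It was over 0.9 times the DMSO cover for 1 gene, LEF1, against 6.55% of tiles. The LEF1 ratio was above that of 96.6% of tiles and the TCF12 ratio above that of 3.74%. ETS1 lay in the middle, above 50.2% of tiles. Windows and tiles differ in length and in how densely they are acetylated, so these ranks are descriptive.

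By peaks, 149 of the 266 DMSO peaks in the windows had no overlapping ACBI peak (56.0%, exact 95% interval 49.8 to 62.1) and are called lost. The background was 59.1% of all DMSO peaks. Intervals on shares are Clopper-Pearson and cover counting error over peaks only. Of the 166 ACBI peaks, 20 had no overlapping DMSO peak (12.0%, 7.52 to 18.0) and are called gained, beside a background of 21.4%. Narrow peaks were lost more often. Under 1 kb, 106 of 131 peaks were lost in the windows (background 80.1%), from 1 to 2 kb 31 of 63 (background 41.6%), and at 2 kb or more 12 of 72 (background 9.79%). For this reason each gene was also set against the share lost among all DMSO peaks of like width, using 10 width classes. LEF1 lost 6 of 43 peaks (13.95%, 5.30 to 27.9), where 42.8% would be lost at its widths. MYB lost 5 of 21 (23.8%, 8.22 to 47.2), beside 43.3%. TCF12 lost 53 of 61 (86.9%, 75.8 to 94.2), beside 67.1%, and TOX lost 53 of 80 (66.3%, 54.8 to 76.4), beside 54.2%. For those 2 genes and LEF1 the width-based share lay outside the interval, while for MYB it lay inside. The other 4 genes were inside theirs: 8 of 11 peaks were lost at GATA3, 9 of 15 at TCF7, 5 of 13 at ETS1 and 10 of 22 at IKZF1.

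**Figure D2:**
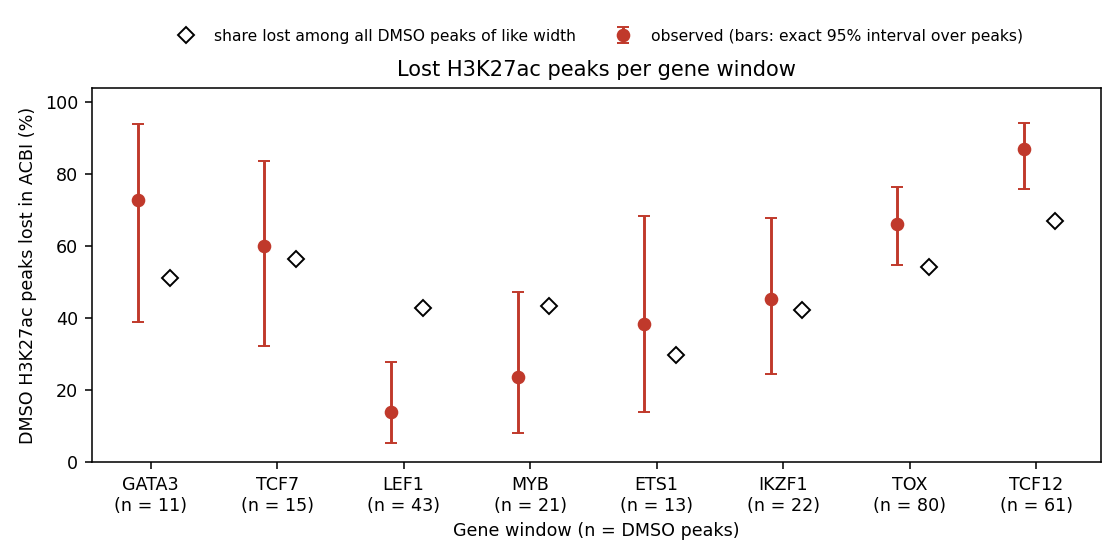
Share of DMSO H3K27ac peaks with no overlapping ACBI peak (percent, vertical axis) per gene window. Red points are the observed shares with exact 95% intervals over peaks, and open diamonds are the share lost among all DMSO peaks of like width. LEF1 (13.95%) lies below its diamond (42.8%), and TCF12 (86.9%) and TOX (66.3%) lie above theirs (67.1% and 54.2%).

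BRG1 and RUNX1 peaks were counted per window, with no scaling for the length of the window. The windows held 16 BRG1 peaks: 6 at TOX, 3 each at LEF1, ETS1 and TCF12, and 1 at IKZF1. No BRG1 peak was listed at GATA3, TCF7 or MYB. Their windows are the shortest of the 8, at 70, 84 and 88 kb, against 364 kb at TOX and 420 kb at TCF12. With so few peaks in all, the absence of BRG1 from these short windows is not a trait of the 3 genes. RUNX1 had 43 peaks and was listed at every gene: 10 each at LEF1 and TOX, 8 at ETS1, 5 at TCF12, 3 each at GATA3, MYB and IKZF1, and 1 at TCF7. Of the BRG1 peaks, 15 of 16 overlapped a RUNX1 peak (93.8%, 69.8 to 99.8), beside a background of 80.7%. Of the RUNX1 peaks, 15 of 43 overlapped BRG1 (34.9%, 21.0 to 50.9), beside 29.8%. Both intervals include their background. The 1 BRG1 peak without RUNX1 measured 320 bp and lay 45.1 kb into TCF12, on chromosome 15 (57255940 to 57256259), under an H3K27ac peak of 784 bp in ACBI and 2436 bp in DMSO. H3K4me3 was overlapped by 8 of the 16 BRG1 peaks (background 61.8%) and by 18 of the 43 RUNX1 peaks (background 43.0%).

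Acetylation at the factor sites themselves was mostly retained. All 16 BRG1 peaks were covered over their whole length by H3K27ac both in ACBI and in DMSO. Over the whole list, 65.2% of the BRG1 peak length was covered in ACBI and 89.2% in DMSO. Counted by overlap of at least 1 bp, 70.6% of all BRG1 peaks met H3K27ac in ACBI and 91.9% in DMSO. RUNX1 peaks overlapped H3K27ac in 39 of 43 cases in ACBI and in 40 of 43 in DMSO, against backgrounds of 64.3% in ACBI and 83.8% in DMSO. Counted together, 55 of the 56 factor peaks that lay in DMSO H3K27ac still met an ACBI peak (98.2%), where the background was 76.2%. Since most BRG1 peaks lay on RUNX1 peaks, the 2 lists were also merged into sites, of which 40 of 41 did so (97.6%, 87.1 to 99.94; background 76.1%). The exception was a RUNX1 peak of 180 bp in TCF12, 55.4 kb into the gene (57266303 to 57266482). No ACBI peak reached it and a DMSO peak covered it fully. Taken by factor, 16 of 16 BRG1 peaks (background 76.3%) and 39 of 40 RUNX1 peaks (background 76.1%) in DMSO H3K27ac still met an ACBI peak. Another 3 RUNX1 peaks were partly covered in ACBI and fully in DMSO: 1 at LEF1 (596 of 766 bp in ACBI) and 2 at TOX (54 of 373 bp and 134 of 366 bp).

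The factor sites of these genes sat in wide acetylated peaks, the class lost least often. The 41 merged sites shared 22 DMSO peaks whose median width was 5911 bp, where that of all 14024 DMSO peaks holding a factor was 2057 bp. Of the 22, 1 was lost (4.55%, 0.115 to 22.8), where 1.96 would be at their widths, and the background for peaks with a factor was 20.5%. Of the 244 DMSO peaks without a factor, 148 were lost (60.7%, 54.2 to 66.8; background 66.2%), where 137.02 would be at their widths. Away from H3K4me3, 1 of 15 peaks with a factor was lost (background 31.3%), and 147 of 240 with neither a factor nor H3K4me3 (background 68.0%). Among peaks of 2 kb or more, none of the 20 with a factor and 12 of the 52 without one were lost (23.1%), beside 3.34% and 14.7% in the whole list. Those 12 lay at TOX (6), GATA3, ETS1 and TCF12 (2 each). The BRG1 and RUNX1 libraries had no treatment label, so whether the factors stayed at these sites in ACBI was not tested.

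**Figure D3:**
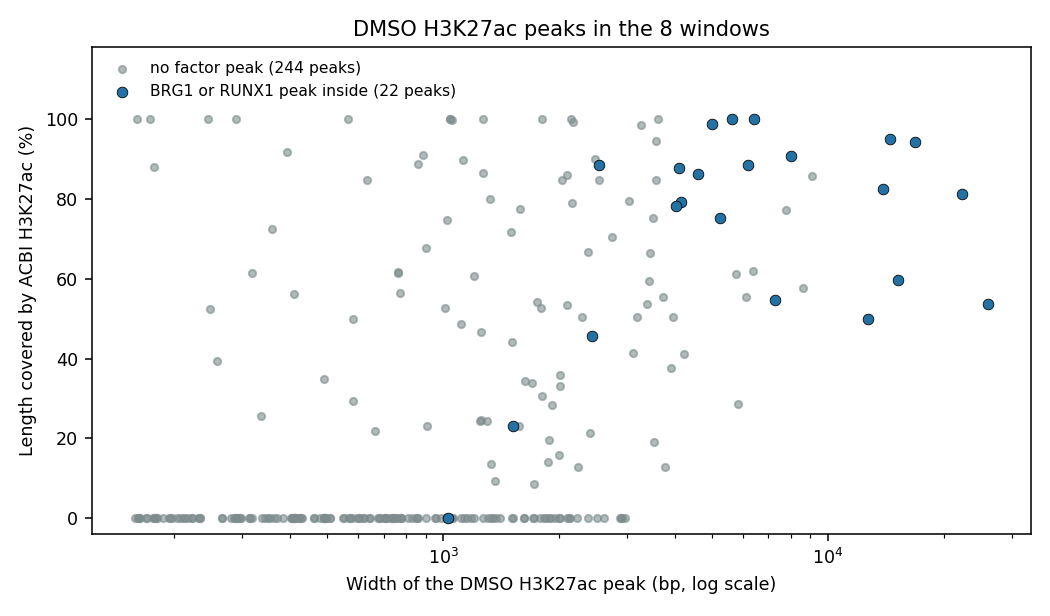
Each point is 1 of the 266 DMSO H3K27ac peaks in the windows, with its width (bp, log scale, horizontal axis) and the share of its length covered by ACBI H3K27ac (percent, vertical axis). Blue points hold a BRG1 or RUNX1 peak (22 peaks, median width 5911 bp) and sit among the wide peaks, with 1 at no cover. Grey points hold none (244 peaks).

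Every gene had H3K4me3 in its window, in 17 peaks in all. ACBI H3K27ac met 15 and DMSO H3K27ac met all 17, beside 78.5% of all H3K4me3 peaks in ACBI and 92.8% in DMSO. The 2 without ACBI cover were narrow, at 238 bp in ETS1 and 229 bp in IKZF1. Of the DMSO H3K27ac peaks, 1 of 11 on H3K4me3 was lost (background 14.5%) and 148 of 255 off it (background 65.0%). RefSeq lists promoters of 6 of the genes, in 18 entries of 300 bases from 250 before to 50 after a transcript start. Their coordinates are in GRCh38.p14 and were not placed on the hg19 peaks. The RUNX core letters TGTGGT or TGCGGT, on either strand, were in 7 of the 18, beside 19.6% of the 35116 promoter entries. GATA3 had them in 3 of 6 entries, TCF7 in 2 of 2, LEF1 in 1 of 1, IKZF1 in 1 of 3, MYB in 0 of 1 and TCF12 in 0 of 5. A match is a description of letters and not a bound site. One entry is shown for each matched gene with RUNX1 on its promoter mark. For GATA3 and IKZF1 it is one that holds TGTGGT, picked for that, and for TCF12 the first of its entries. Which start these cells use was not tested, and no entry was tied to a RUNX1 peak. Capitals mark the core letters as read 5′ to 3′ on the gene's strand, so ACCACA is TGTGGT on the opposite strand.
LEF1, minus strand of chr4:108166252-108166551: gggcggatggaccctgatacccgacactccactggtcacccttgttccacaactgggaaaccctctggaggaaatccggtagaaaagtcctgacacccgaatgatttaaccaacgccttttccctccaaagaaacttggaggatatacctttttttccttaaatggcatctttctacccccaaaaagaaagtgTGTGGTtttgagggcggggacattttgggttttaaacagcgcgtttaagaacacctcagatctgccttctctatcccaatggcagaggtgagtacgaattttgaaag
GATA3, plus strand of chr10:8050986-8051285: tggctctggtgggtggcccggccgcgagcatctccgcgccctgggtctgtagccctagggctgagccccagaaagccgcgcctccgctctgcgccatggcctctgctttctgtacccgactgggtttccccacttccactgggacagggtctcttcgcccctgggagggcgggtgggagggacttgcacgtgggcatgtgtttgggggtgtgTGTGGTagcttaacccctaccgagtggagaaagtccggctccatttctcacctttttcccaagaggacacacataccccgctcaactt
IKZF1, plus strand of chr7:50308450-50308749: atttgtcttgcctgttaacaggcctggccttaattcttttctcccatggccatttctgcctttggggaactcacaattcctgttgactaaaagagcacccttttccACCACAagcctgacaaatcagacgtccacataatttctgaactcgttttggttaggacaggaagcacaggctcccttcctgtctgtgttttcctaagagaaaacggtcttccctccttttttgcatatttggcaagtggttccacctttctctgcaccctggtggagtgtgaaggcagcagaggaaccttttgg
MYB, plus strand of chr6:135181058-135181357: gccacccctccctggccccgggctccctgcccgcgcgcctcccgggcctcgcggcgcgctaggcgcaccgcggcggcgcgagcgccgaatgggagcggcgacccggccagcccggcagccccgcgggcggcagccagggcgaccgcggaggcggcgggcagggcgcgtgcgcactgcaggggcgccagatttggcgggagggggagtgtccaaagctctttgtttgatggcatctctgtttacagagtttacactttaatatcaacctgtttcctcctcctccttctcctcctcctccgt
TCF12, plus strand of chr15:56917840-56918139: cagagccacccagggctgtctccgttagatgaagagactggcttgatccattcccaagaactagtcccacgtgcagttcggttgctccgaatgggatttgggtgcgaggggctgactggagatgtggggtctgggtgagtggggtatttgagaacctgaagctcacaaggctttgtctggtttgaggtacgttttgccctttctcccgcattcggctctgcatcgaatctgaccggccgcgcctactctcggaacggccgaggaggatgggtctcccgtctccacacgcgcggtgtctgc
The LEF1 match began 57 bases before the start, the GATA3 match 38 and the IKZF1 match 144. The MYB and TCF12 entries hold neither core. RUNX1 peaks covered 1806 bp of the MYB promoter mark and 616 bp of the TCF12 promoter mark, while none met that of TCF7, a gene with a core in both of its entries.

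Among the HMG-box genes, LEF1 was the most densely acetylated of the 8: H3K27ac covered 55.5% of its window in ACBI and 56.3% in DMSO. Its promoter H3K4me3 peak was 9146 bp wide on chromosome 4 (109081879 to 109091024), the third widest of the 12834 H3K4me3 peaks. Of its length, 89.3% was acetylated in ACBI and all of it in DMSO. The widest H3K27ac peak of each condition spanned this start and measured 13072 bp in ACBI (109083661 to 109096732) and 16801 bp in DMSO (109078338 to 109095138). A BRG1 peak of 306 bp inside a RUNX1 peak of 529 bp lay at the 5′ end of the gene. A second H3K4me3 peak, of 2631 bp, held 2 further BRG1 peaks of 204 and 430 bp, each within RUNX1, 2.76 and 4.54 kb upstream. The widest co-occupied stretch here was the 430 bp BRG1 peak.

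The level total at LEF1 hid an exchange of covered bases. Of the DMSO-covered length, 75.5% was also covered in ACBI, beside 51.1% over the 8 genes and 44.3% over the whole list. A length of 22.2 kb was covered in ACBI only and 23.6 kb in DMSO only. The ACBI-only part was 23.4% of the ACBI cover at LEF1. That is near the 20.3% of the whole list, while over the 8 genes it was 13.8%. Gained peaks measured 1.12 kb in all, so most of the ACBI-only length lay in ACBI peaks that extended past their DMSO partners. Where exactly 1 ACBI peak met 1 DMSO peak, the ACBI peak was the wider in 9 of 16 pairs at LEF1, against 18 of 72 over the 8 genes. It was the narrower in 54 of those 72 (75%), as in 74.5% of the 28543 pairs of the whole list. Inside the gene, an ACBI peak of 3038 bp (109051824 to 109054861) had 471 bp in common with DMSO peaks, and one of 2975 bp (109059053 to 109062027) had 1040 bp. In the 3′ flank, an ACBI peak of 10586 bp (108947454 to 108958039) covered a DMSO peak of 6428 bp and reached into the next, and 9361 bp of it was covered in DMSO. Genes within 25 kb of LEF1 in GRCh38 include HADH, which encodes a mitochondrial fatty acid enzyme, and LEF1-AS1, and peaks were not assigned among them. The widest lost peak at LEF1 measured 1270 bp and lay 8.22 kb upstream, and the widest gained one 662 bp, 14.4 kb upstream.

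**Figure D4:**
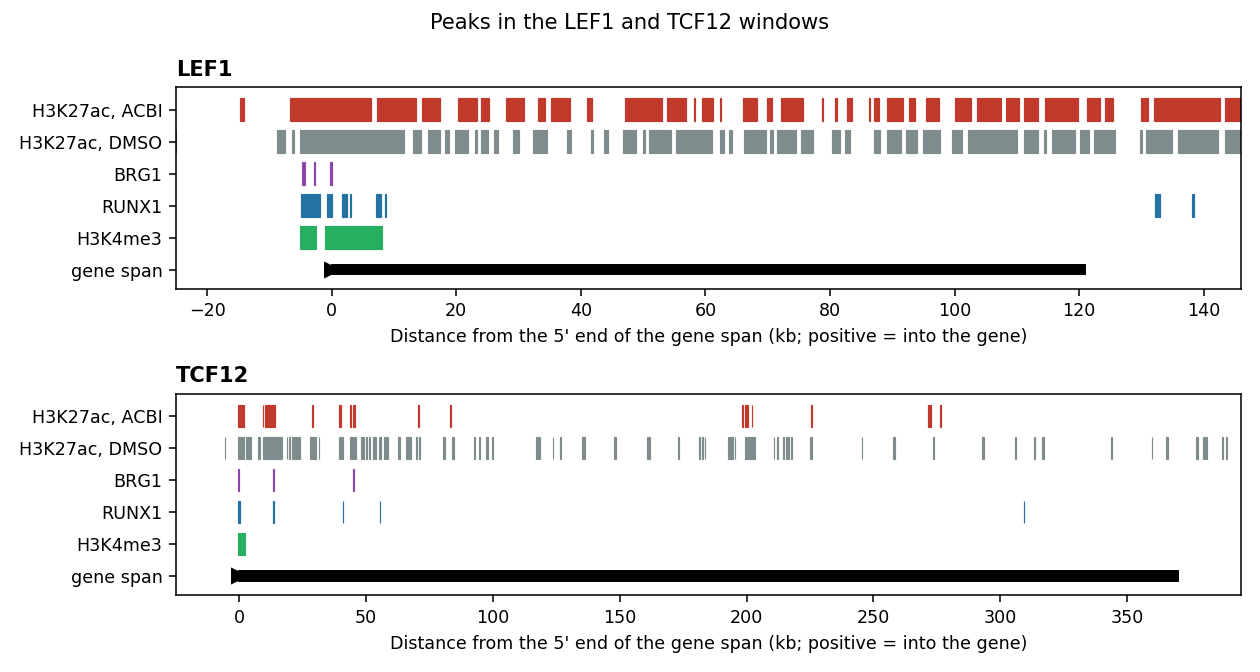
Peaks of the 5 lists at LEF1 and TCF12 by distance from the 5′ end of the gene span (kb, horizontal axis), with H3K27ac in ACBI above H3K27ac in DMSO. LEF1 is covered along its length in both conditions (55.5% of the window in ACBI, 56.3% in DMSO). TCF12 shows 15 peaks in ACBI and 61 in DMSO, and its ACBI peaks of 2 kb or more are the 2258 bp and 3974 bp peaks near the 5′ end.

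TCF7 differed from its relative LEF1. Its promoter H3K4me3 peak measured 2122 bp on chromosome 5 (133449935 to 133452056), and H3K27ac covered 171 bp of it in ACBI and 1313 bp in DMSO. No other gene had so small a share of its H3K4me3 acetylated in either condition, at 8.06% in ACBI and 61.9% in DMSO. The acetylation of TCF7 lay mainly inside the gene. The widest peaks were one of 6263 bp in ACBI (133464886 to 133471148) and one of 15236 bp in DMSO (133455322 to 133470557). The DMSO peak was met by 5 separate ACBI peaks, which covered 59.7% of it. The 1 RUNX1 peak of the window, 236 bp wide and 18.2 kb into the gene, lay in both of these widest peaks. Within the gene span the ratio of ACBI to DMSO cover was 0.731, while in the flanks it was 0.151 (1.20 kb in ACBI, 7.94 kb in DMSO). VDAC1 and SKP1 lie within 25 kb of TCF7 in GRCh38, and each of the 8 genes has at least 1 listed neighbour this near. Flank peaks were not assigned among genes. The widest lost peak was 1206 bp, 13.8 kb upstream, and the only gained peak 435 bp.

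TOX is one of the 2 largest genes here. Like LEF1 it had 10 RUNX1 peaks, and it had the most BRG1 peaks, at 6. Its promoter H3K4me3 peak of 4930 bp on chromosome 8 (60028214 to 60033143) ranked 89 in width of 12834 and held 2 BRG1 and 2 RUNX1 peaks. It was acetylated over 75.1% of its length in ACBI and all of it in DMSO. A site 11.5 kb into the gene, with BRG1 (380 bp) and RUNX1 (436 bp), had an H3K27ac peak of 5904 bp in ACBI and 5642 bp in DMSO. Just past the 3′ end, 317.8 kb from the 5′ end, a RUNX1 peak of 1506 bp contained the widest BRG1 peak of TOX (597 bp, 59713866 to 59714462). It kept H3K27ac, in a peak of 3608 bp in ACBI and 4108 bp in DMSO. The widest ACBI peak, of 6356 bp (59716920 to 59723275), lay beside it. Over the whole window 36 peaks were listed in ACBI and 80 in DMSO, and the longest DMSO peak (12689 bp, 59923866 to 59936554) was covered by ACBI over 49.8% of its length. That peak held BRG1 and RUNX1, and the BRG1 site itself remained covered. The widest lost peak measured 2889 bp (59989600 to 59992488), 41.0 kb into the gene, and held no factor. The widest gained one was 862 bp, 1301 bp from the nearest DMSO peak.

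GATA3 and IKZF1, the zinc finger genes, had broad acetylated domains over their starts. At GATA3 the domain measured 11502 bp in ACBI (8095227 to 8106728 on chromosome 10) and 13919 bp in DMSO (8094927 to 8108845), and all 3 RUNX1 peaks lay inside it. Its H3K4me3 peak of 6124 bp ranked 36 in width of 12834 and was fully acetylated in both conditions. The lost peaks of 2 kb or more lay downstream of it and held no factor: 1 of 2915 bp inside the gene (8113398 to 8116312) and 1 of 2507 bp in the 3′ flank (8119248 to 8121754). The ratio of ACBI to DMSO cover was 0.697 within the gene span and 0.360 in the flanks. The widest gained peak, of 827 bp, lay 413 bp from a DMSO peak.

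At IKZF1 the promoter domain was a peak of 15518 bp in ACBI (50344121 to 50359638 on chromosome 7) and of 14463 bp in DMSO (50343409 to 50357871). The ACBI peak covered 95.1% of that DMSO peak and also 1009 bp of the next one, which measured 1124 bp (50358630 to 50359753). The promoter H3K4me3 peak was acetylated over 88.2% of its length in ACBI and all of it in DMSO. The domain held the 1 BRG1 peak of the gene (286 bp), of which 204 bp overlapped RUNX1. A second broad domain lay within the gene, and in DMSO it was a single peak of 22290 bp (50410653 to 50432942), rank 154 of 90495. In ACBI it was broken into 5 peaks of up to 10859 bp that covered 81.4% of it. The RUNX1 peak inside it, 84.4 kb into the gene, was covered in both conditions. None of the 21 ACBI peaks at IKZF1 was gained, with an exact upper bound of 16.1%. The widest lost peak was 1829 bp, past the 3′ end, and lay 10564 bp from the nearest ACBI peak. The flanks had 0.764 kb of H3K27ac in ACBI and 5.97 kb in DMSO.

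MYB kept its promoter peak, at 3975 bp in ACBI (135501440 to 135505414 on chromosome 6) and 4608 bp in DMSO (135501141 to 135505748). It lay on a 3778 bp H3K4me3 peak with 2 RUNX1 peaks, and 99.2% of that mark was acetylated in ACBI and all of it in DMSO. MYB was the only gene besides TCF12 without a DMSO peak of 10 kb or more. Its acetylation was spread along the gene as 19 peaks in ACBI and 21 in DMSO. Of the DMSO peaks, 16 were kept. Past the 3′ end, DMSO peaks of 3527 bp (135550272 to 135553798) and 3781 bp (135554857 to 135558637) were covered over only 19.2% and 12.96% in ACBI. The widest lost peak was 680 bp, 25.4 kb into the gene, and the only gained peak 596 bp, 24.4 kb upstream.

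At ETS1 the promoter mark lay inside the gene span. No H3K4me3 peak was listed in the 64.1 kb of the span next to its far 5′ end, nor in the 25 kb flank upstream. Positions further upstream were not searched. The nearest in the window, of 2711 bp on chromosome 11 (128390174 to 128392884), lay 65.5 kb into the span. It met a BRG1 peak of 840 bp inside a RUNX1 peak of 1121 bp. That BRG1 peak was the widest of the 8 genes. The H3K27ac peak on this H3K4me3 peak measured 7331 bp in ACBI and 8036 bp in DMSO. The mark was acetylated over 94.8% of its length in ACBI and 93.7% in DMSO. In the 64.1 kb between the mark and the 5′ end, H3K27ac covered 4.76 kb in ACBI and 5.79 kb in DMSO. In ACBI this was all part of the 7331 bp peak on the mark, and in DMSO it was part of the 8036 bp peak plus 1 peak of 297 bp.

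Downstream of this mark the body of ETS1 was covered in pieces in ACBI. A DMSO peak of 26126 bp (128332318 to 128358443), rank 109 of 90495 and the widest of the 8 genes, was met by 7 ACBI peaks that covered 53.6% of it. The 3 RUNX1 peaks inside it, all without BRG1, were each covered in both conditions. By contrast a site 24.1 kb upstream of the span, with BRG1 (446 bp) and RUNX1 (527 bp), had an H3K27ac peak of 6606 bp in ACBI and 6180 bp in DMSO. The widest lost peak was 2963 bp (128325040 to 128328002), beyond the 3′ end, and the widest gained one 555 bp, 105 bp from a DMSO peak.

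**Figure D5:**
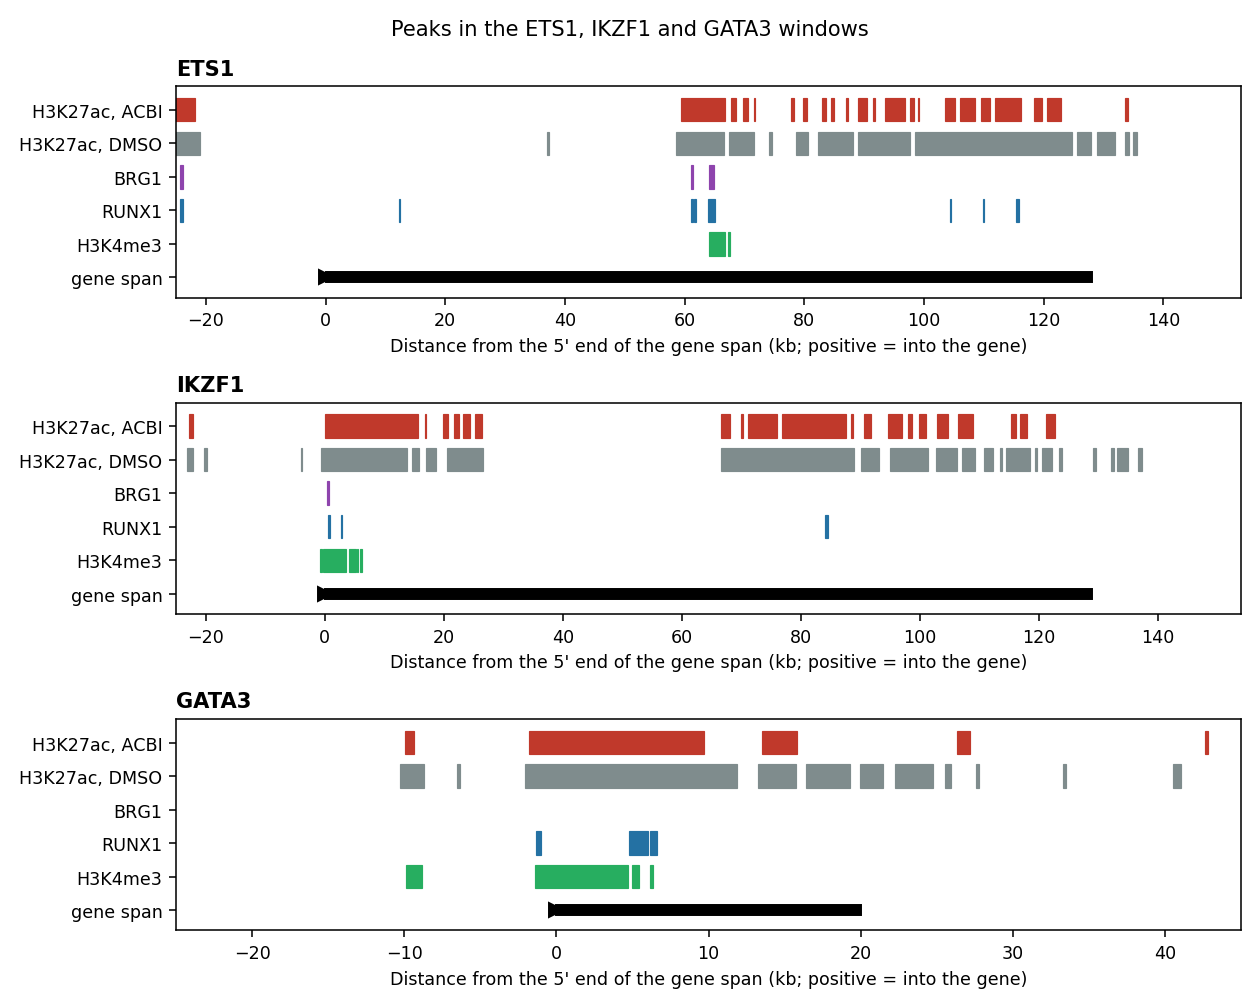
Peaks of the 5 lists at ETS1, IKZF1 and GATA3 by distance from the 5′ end of the gene span (kb, horizontal axis), with H3K27ac in ACBI above H3K27ac in DMSO. ETS1 shows H3K4me3 65.5 kb inside its span and a 26126 bp DMSO peak met by 7 ACBI peaks. IKZF1 and GATA3 carry a broad peak over their starts in both conditions.

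TCF12 had the lowest cover of the 8 genes, at 3.13% of its window in ACBI and 13.7% in DMSO. Its ACBI peaks of 2 kb or more were 2, both near the 5′ end. The promoter H3K27ac peak measured 2258 bp in ACBI (57210403 to 57212660) and 2548 bp in DMSO (57210336 to 57212883), on an H3K4me3 peak of 2862 bp with BRG1 inside RUNX1. A site 13.4 kb into the gene had the widest BRG1 peak of TCF12 (628 bp), inside a RUNX1 peak of 741 bp. Its H3K27ac peak was the widest of the gene in both conditions, at 3974 bp in ACBI (57221115 to 57225088) and 7266 bp in DMSO (57220350 to 57227615). Of the 53 lost peaks, 51 were under 2 kb, and 1 held RUNX1 (57265920 to 57266947). None held BRG1, but all 16 BRG1 peaks of the 8 genes, 3 of them here, were covered in ACBI. The widest lost peak was 2895 bp (57231936 to 57234830), 22.4 kb into the gene. Of the DMSO-covered length, 18.2% was also covered in ACBI, the lowest of the 8 genes. The widest gained peak of all 8 genes was also here, at 1238 bp (57482651 to 57483888), 600 bp from a DMSO peak.

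Broad H3K27ac peaks of 10 kb or more numbered 5 in ACBI (2 each at LEF1 and IKZF1, 1 at GATA3) and 7 in DMSO (2 at IKZF1 and 1 each at GATA3, TCF7, LEF1, ETS1 and TOX). The backgrounds were 0.933% of ACBI peaks and 1.07% of DMSO peaks. None of the 7 was lost, as in the whole list (0.00% of 970). Of the 117 DMSO peaks that were kept, 93 were met by 1 ACBI peak and 24 by several (20.5%, 13.6 to 29.0; background 13.8%). All 24 measured 2 kb or more, and among kept peaks of that width the share was 24 of 60 (40.0%, 27.6 to 53.5), an interval that includes the background of 31.3%. Away from H3K4me3, the ratio of ACBI to DMSO cover ran from 0.198 at TCF12 and 0.391 at TOX to 0.995 at LEF1. Most DMSO cover lay there: 55.2 of 57.7 kb at TCF12, 111.6 of 116.5 kb at TOX and 84.5 of 96.3 kb at LEF1. The order of these 3 genes could therefore hardly differ from that with promoters included, and it is no separate check.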

How the data were processed

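Peak lists of 5 of the 9 samples were used as the authors deposited them, 1 library per group. The 4 control samples (IgG, input) were not analysed here. Each list gives chromosome, start, end and name, with no score or read count. The submitters' processing notes name hg19, MACS2 and SEACR. RUNX1 peaks came from MACS2 and H3K27ac lists are broad peaks at q below 0.01, per the file headers. Other thresholds, the use of controls and the aligner: not given in the sources used here. Lists of different targets may come from different settings.

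Groups followed the sample titles. Overlaps (at least 1 bp), covered lengths clipped to the windows and exact 95% intervals were computed with Python 3.11.15 (scipy 1.17.1, pandas 2.3.3, numpy 2.4.6, matplotlib 3.10.9). Cover was checked against bedtools 2.31.1 for 25 pairs of lists, with 0 peaks differing, and on simulated intervals. Gene spans, and the members themselves, were chosen with earlier results of these data known. Gene direction came from the RefSeq promoter table for 6 genes and from general knowledge for ETS1 and TOX. Named elements are the widest of each kind per gene, the promoter mark and factor sites without ACBI cover; others named here were chosen after their values were seen. The 200 kb tiles, the width classes, the comparison by factor, the merged sites and the counts of split peaks were added after seeing the data. Alternatives changed the flanks, the overlap rule, the minimum width and the list lengths. Without an hg19 genome no peak sequence was read.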

Additional observations from a re-analysis of the deposited data

How the results depend on the processing

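The ratio of H3K27ac cover in ACBI to DMSO over the 8 windows stayed between 0.574 and 0.647 under other flanks, a minimum width of 500 bp, equal numbers of the widest peaks and leaving out any gene except LEF1, without which it was 0.501. Leaving out a gene was an alternative chosen after seeing the data. The share of DMSO peaks lost was 64.1% without LEF1 and 46.8% without TCF12. It was 69.9% when 50% of a peak had to be covered, 47.0% when a peak within 1 kb counted, and 42.3% with both lists limited to equal numbers of their widest peaks. The gained share under these 3 rules was 18.7%, 4.22% and 18.1%. Whole-list shares were not computed under these 3 rules, so the backgrounds of 59.1% and 21.4% do not apply to them. The cause of these shifts was not tested. The LEF1 ratio, close to 1, turned to 1.00002 with peaks of at least 500 bp and to 1.02 with equal numbers of the widest peaks. Among 46 alternative values of the pooled results 37 stayed within their limits and 9 moved (interval of the share, or 10% of the ratio). Of the alternative ratios per gene, 26 stayed, 4 moved and 2, both at LEF1, crossed 1. Without flanks the ratio moved from 0.579 to 0.697 at GATA3, from 0.603 to 0.731 at TCF7 and from 0.616 to 0.763 at MYB. With equal numbers of the widest peaks it moved from 0.228 to 0.274 at TCF12. No paired analysis was possible because each condition has 1 library. Read depth is unknown, which limits every comparison of the 2 H3K27ac lists.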
